A study of Mus musculus with 12 samples.

Results

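CD45, the receptor phosphatase bound by the anti-CD45RB antibody, was followed at the RNA level together with a partner protein, a splicing regulator of its own transcript and the kinases and adaptors that act next to it at the T cell receptor. The set held 9 genes of the 35275 in the table: Ptprc (CD45), Ptprcap, Hnrnpll, Lck, Fyn, Csk, Zap70, Lat and Lcp2. They were chosen by name for this role, with earlier results of these data known, and all 9 were among the 13115 genes that passed a filter of a mean of at least 0.5 FPKM. RNA was sequenced from purified CD4+ T cells of 12 female mice, aged 9 to 12 weeks, with 3 mice and 1 library per mouse in each of 4 groups. C57BL/6 (B6) mice were either left untreated or given 5 intraperitoneal injections of 100 μg of anti-CD45RB (clone MB23G2) between day 0 and day 7. B6.NZMSle1/Sle2/Sle3 (SLE123) mice, a B6 congenic line with the lupus susceptibility loci Sle1, Sle2 and Sle3 of NZM2410, made up the other untreated and treated groups. The loci lie on chromosomes 1, 4 and 7, which also carry Ptprc and Zap70, Lck, and Lat, and whether these genes fall within the NZM2410 intervals was not examined. The untreated mice are not stated to have had a control antibody, so the injections themselves are part of every treated group. The methods also describe a sort into CD25+ and CD25- cells, and no fraction is named for these libraries. The titles of the treated SLE123 libraries carry a letter C whose meaning is not given, and their group was taken to be the one that their treatment label states.

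T cell receptor signaling starts with Lck and Fyn, kinases of the Src family that are held closed when Csk phosphorylates a tyrosine in their C-terminal tail. CD45 removes that phosphate, and can also remove the activating one. Active Lck phosphorylates the receptor chains and Zap70, and Zap70 phosphorylates the adaptors Lat and Lcp2 (SLP-76), on which the signaling complex is built. CD45 is made in several isoforms, because 3 variable exons that encode glycan-bearing segments A, B and C are kept or skipped. hnRNPLL, the product of Hnrnpll, promotes their skipping as T cells become memory cells. The RB epitope lies in segment B, the product of exon 5.

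The sequence behind the epitope is shown because the antibody binds only isoforms that keep it, while the measurement could not tell the isoforms apart. Ptprc lies on the minus strand of chromosome 1, at chr1:138062861-138175708 of GRCm38, the assembly also called mm10. In the GENCODE M21 transcript Ptprc-207, which holds all 3 variable exons, these are exon 4 (chr1:138122456-138122584), exon 5 (chr1:138120020-138120166) and exon 6 (chr1:138117754-138117894). Codons for serine or threonine, the residues that can carry O-linked glycans, are in capitals, and all other bases are in lower case.
Exon 4, segment A: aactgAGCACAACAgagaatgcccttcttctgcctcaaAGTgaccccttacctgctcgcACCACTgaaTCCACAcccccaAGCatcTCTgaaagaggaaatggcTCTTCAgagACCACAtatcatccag
Exon 5, segment B: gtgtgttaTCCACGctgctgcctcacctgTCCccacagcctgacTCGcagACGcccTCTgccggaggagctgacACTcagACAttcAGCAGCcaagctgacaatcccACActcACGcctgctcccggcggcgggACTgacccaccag
Exon 6, segment C: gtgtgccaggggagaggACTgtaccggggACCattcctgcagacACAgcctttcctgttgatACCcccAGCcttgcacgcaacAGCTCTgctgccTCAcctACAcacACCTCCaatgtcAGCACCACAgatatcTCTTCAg

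Serine and threonine made up 14 of the 42 whole codons of exon 4, 13 of the 48 of exon 5 and 16 of the 46 of exon 6, or 33.3%, 27.1% and 34.8%. In the rest of the Ptprc-207 coding sequence they made up 156 of 1157 codons, or 13.5%. Among the protein-coding transcripts in the annotation, Ptprc-213 has exon 5 alone of the 3 and Ptprc-203 has none of them. The deposited value for Ptprc is a single number per gene over a transcript length of 5186 bases, so inclusion of exon 5 was not measured.

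The C-terminal tails of the Src-family members show the tyrosine on which Csk and CD45 act in opposition, and the last 12 codons of each coding sequence are given with that codon in capitals.
Lck, transcript Lck-202, chr4:129548801-129548836, minus strand: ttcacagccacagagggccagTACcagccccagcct
Fyn, transcript Fyn-207, chr10:39563934-39563969, plus strand: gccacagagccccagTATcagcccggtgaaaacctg
The capitals are codon 505 of 509 in Lck and codon 528 of 534 in Fyn. Transcript levels carry no information on phosphorylation at these sites.

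Libraries held 13563594 to 23642949 fragments, with a median of 16828670, and the 9 genes were covered by 1021 to 47858 fragments in a library. Several libraries stood apart. The library of untreated SLE123 mouse 1 was nearer to those of treated SLE123 mice 2 and 3 (a median squared difference of 3.27 and 3.89 times the counting noise) than to those of untreated SLE123 mice 2 and 3 (18.3 and 12.1 times), against its label. Untreated SLE123 mice 2 and 3 were also far from each other (18.2 times) and from the treated SLE123 libraries (10.5 to 20.6 times). These 2 libraries therefore stood apart from all other SLE123 libraries, and the distances do not show a wrong label for mouse 1. Long genes (at least 4000 bases) were low against short genes (at most 1500 bases) in untreated SLE123 mouse 2, with an index of -0.37 on the log2 scale, while the index was -0.08 to 0.09 in the other 11 libraries. Immunoglobulin transcripts took 39.8% of all FPKM in untreated SLE123 mouse 3, 11.3% to 23.5% in the other SLE123 mice and 0.327% to 1.46% in B6 mice. The sum of 7 liver transcripts was 40.2 to 47.3 FPKM in all 6 B6 libraries and in treated SLE123 mouse 1, and 0.0767 to 0.483 FPKM in the other 5, so whatever separates these libraries cannot be told apart from strain except through 1 mouse. The 9 markers of the T cell lineage summed to 1728 to 2307 FPKM and none was at 0. All comparisons are of 3 mice against 3, with limma on log2(FPKM + 1) and p-values adjusted over all 13115 genes, and each strain comparison shares its mice with the treatment comparisons.

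In untreated B6 cells the members ran from 14.4 to 520.0 FPKM, a scale that is corrected for transcript length. Ptprc (520.0 ± 19.4 FPKM; SD, n = 3) and Lat (497 ± 19.2 FPKM) were highest, and their mice overlapped. Lck (421 ± 7.43 FPKM) and Ptprcap (286 ± 14.7 FPKM) followed. Csk (156 ± 6.13 FPKM) stood just above Fyn (143 ± 4.04 FPKM) and Zap70 (141 ± 6.32 FPKM), and the last pair overlapped. Lcp2 was at 94.3 ± 1.06 FPKM and Hnrnpll at 14.4 ± 0.141 FPKM. Of the 9, 8 belonged to the abundant transcripts of these cells, with ranks 102 (Ptprc) to 540 (Lcp2) among 11204 protein-coding genes over all 12 mice, and Hnrnpll ranked 3516.

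**Figure D1:**
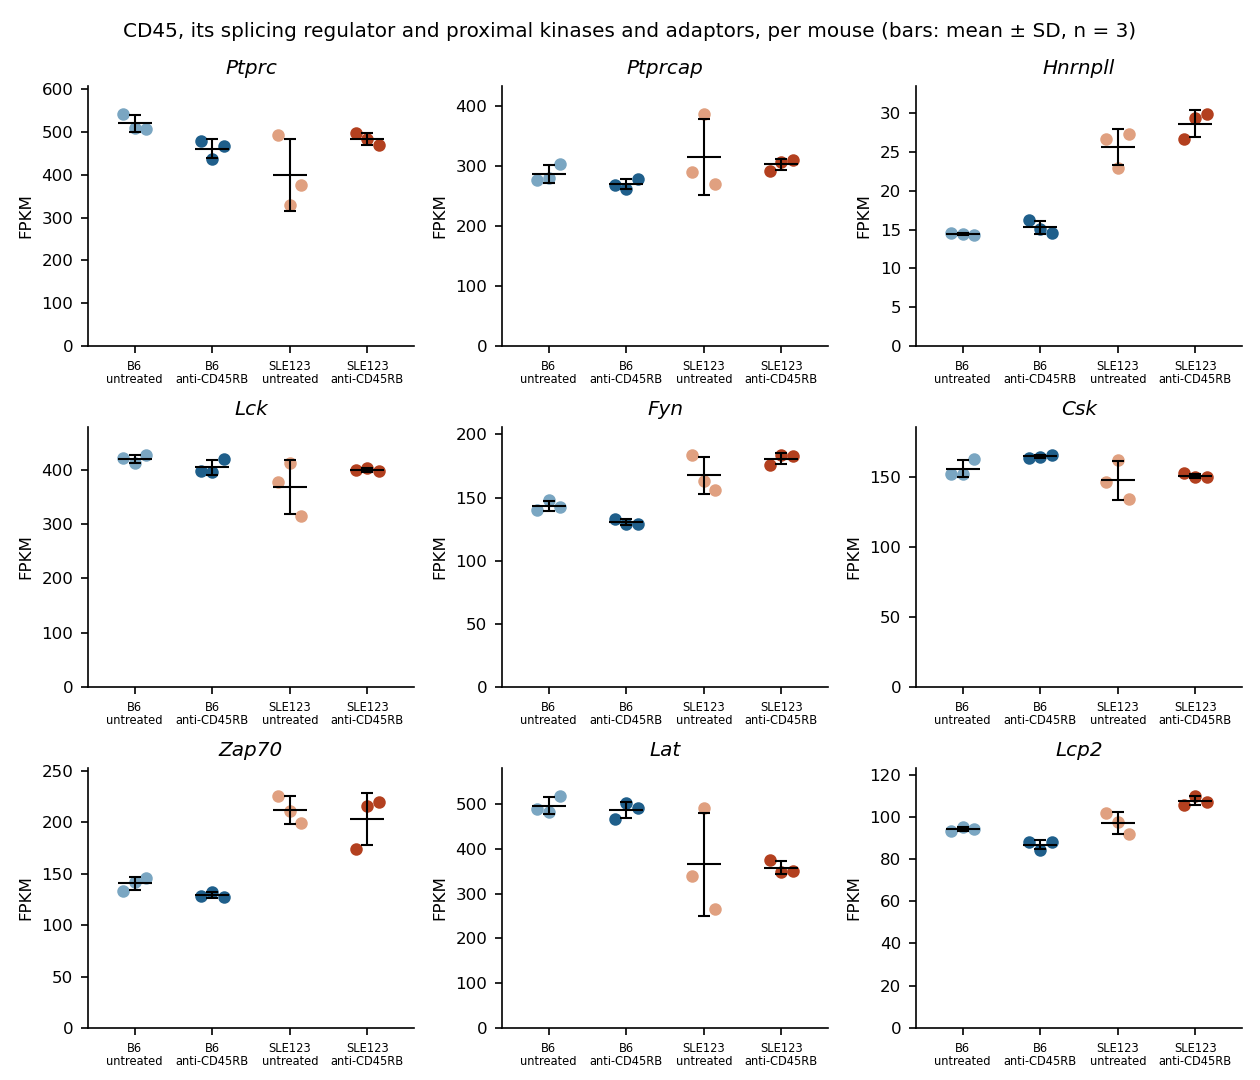
FPKM of each of the 9 genes in each of the 12 mice, with the mean and SD of 3 mice per group as bars, on axes that start at 0. Hnrnpll and Zap70 are higher in every SLE123 mouse than in any B6 mouse, and the untreated SLE123 mice spread most for Ptprc, Ptprcap, Lck and Lat.

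The order changed in SLE123. In treated SLE123 mice Lck (400.4 ± 3.68 FPKM) stood above Lat (358 ± 14.2 FPKM) without overlap, and Zap70 (203 ± 25.4 FPKM) and Fyn (181 ± 4.43 FPKM), which overlapped, stood above Csk (151 ± 1.35 FPKM). All members except Zap70 varied most among untreated SLE123 mice, where the coefficient of variation was 31.3% for Lat, 21.1% for Ptprc and 20.0% for Ptprcap. Zap70 had 12.5% in treated and 6.30% in untreated SLE123 mice, and no member exceeded 5.47% in either B6 group.

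The splicing regulator Hnrnpll (chr17:80029487-80062334, minus strand) differed most between the strains. It was at 14.5, 14.4 and 14.2 FPKM in the untreated B6 mice and at 26.7, 23.0 and 27.3 FPKM in the untreated SLE123 mice. After anti-CD45RB it was at 16.2, 15.1 and 14.5 FPKM in B6 and at 26.7, 29.3 and 29.9 FPKM in SLE123. The strains did not overlap in either state. Hnrnpll was 1.72-fold higher in SLE123 among untreated mice (log2 difference 0.79, SE 0.086, adjusted p = 0.000477) and 1.82-fold higher among treated mice (0.86, SE 0.061, adjusted p = 8.3e-05). These comparisons have no mouse in common. The call held in all 18 settings run in each state, with log2 differences of 0.43 to 1.02 and of 0.71 to 0.99, and with any mouse left out it was 0.74 to 0.86 and 0.83 to 0.91. With untreated SLE123 mouse 1 as the sole untreated SLE123 sample, without the other libraries that stood apart, the difference was 0.84. That fit is given as a value only, here and for the genes that follow, since the spread then comes from the other group.

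Hnrnpl, the related splicing factor that acts on the same exons, lay the other way, at 199.7 ± 3.39 FPKM in untreated B6 and 183 ± 7.75 FPKM in untreated SLE123 cells, a difference that was not called (log2 -0.12, 95% interval -0.32 to 0.07, adjusted p = 0.260). Within a mouse, Hnrnpll stood to Hnrnpl as 0.0710 to 0.0808 in the 6 B6 mice, and the 6 SLE123 mice had ratios of 0.122 to 0.156. The list of splicing factors for CD45 exons, which includes the kinase Gsk3b, had 16 tested genes. Of these 4 fell and 0 rose in untreated SLE123 against untreated B6 (42.9% of all genes were called in this comparison), namely Thrap3 (-0.52), Srsf5 (-0.47), Sfpq (-0.23) and Srsf2 (-0.23). Between treated mice 2 rose and 5 fell, where 52.1% of all genes were called. The higher ones were Srsf1 (0.33) and Celf2 (0.26), and the lower ones were Srsf5 (-0.31), Tra2a (-0.19), Thrap3 (-0.16), Srsf7 (-0.14) and Sfpq (-0.12), all as log2 differences.

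**Figure D2:**
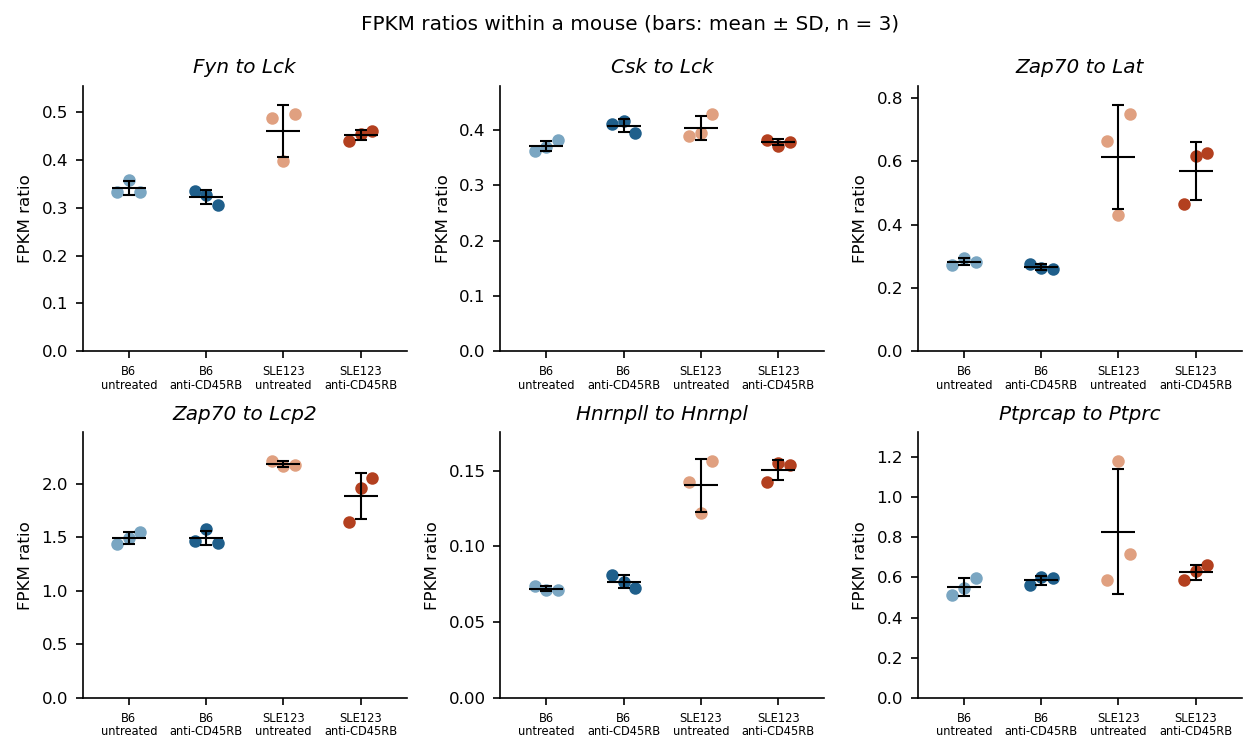
Ratios of FPKM within a mouse for 6 gene pairs, with the mean and SD of 3 mice per group, on axes that start at 0. Fyn to Lck, Zap70 to Lat and Hnrnpll to Hnrnpl are higher in all 6 SLE123 mice than in all 6 B6 mice, and Ptprcap to Ptprc is highest in untreated SLE123 mouse 2.

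Markers of other cell types and states also differed between the untreated strains. In untreated SLE123 against untreated B6 all 7 plasma cell markers rose, and their sum was 1979 to 5118 FPKM against 58.1 to 78.4 FPKM. All 7 tested of 9 B cell markers also rose, from a sum of 6.50 to 7.94 FPKM to a sum of 64.6 to 239.9 FPKM. Of the markers of activated and memory CD4 T cells 8 of 10 rose (sums of 481 to 560.4 against 155 to 178 FPKM), of regulatory T cells 5 of 6 rose (200.0 to 214 against 48.0 to 61.7 FPKM), and of naive CD4 T cells 7 of 8 fell (824 to 1441 against 2279 to 2392 FPKM). Between treated strains, where 52.1% of all genes were called, 3 of the 7 tested B cell markers were higher and 3 lower. All 7 plasma cell markers were higher there, as were 8 of 10 activated and memory and 5 of 6 regulatory T cell markers. Of the 10, 1 was lower, and all 8 naive markers were lower. With anti-CD45RB 6 of 7 tested B cell markers and 2 of 7 plasma cell markers (5 by voom) were called higher in B6, where 8.74% of all genes rose. The plasma cell sums were 94.7 to 198 FPKM in treated B6 and 1066 to 1954 FPKM in treated SLE123 mice. Hnrnpll was at 0.08 in B6, with no overlap and no call, and was called at 0.19 with levels centred on the T cell markers. None of the markers of these lists was at 0 in all mice of a group. hnRNPLL is also made by plasma cells, and the part of any of these cells in the Hnrnpll difference was not tested. In RNA of whole populations, more cells that make a transcript and more transcript per cell cannot be told apart.

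The genes whose levels followed Hnrnpll most closely over the 12 mice were Vdr (Pearson's r = 0.994), Ptprs (r = 0.994) and Ikzf2 (r = 0.993), of 11203 protein-coding genes compared. Vdr is the vitamin D receptor, Ptprs is another receptor phosphatase and Ikzf2 encodes Helios, a transcription factor of regulatory T cells. The mice fall into 2 strain clusters, so these values mainly express a shared strain difference and are given as a description. The genes closest to Ptprc were Mga (r = 0.980), Gpr174 (r = 0.980), Arhgef6, Stk26 and Hltf (r of 0.971 to 0.978), whose transcripts are 3639 to 13931 bases long.

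Among the kinases Zap70 (chr1:36761798-36782818, plus strand), which carries the signal from the receptor to the adaptors, showed the clearest strain difference. It was at 134, 142 and 146 FPKM in untreated B6 mice and at 226, 211 and 199 FPKM in untreated SLE123 mice. In treated mice it was at 129, 133 and 127 FPKM in B6 and at 174, 216 and 219.6 FPKM in SLE123. The strains did not overlap, and the lowest SLE123 value belonged to treated mouse 1, the library with liver transcripts. The log2 difference was 0.59 (SE 0.090, 50.4% higher, adjusted p = 0.0021) among untreated mice and 0.64 (SE 0.089, 55.5% higher, adjusted p = 0.0012) among treated mice. It was called in 17 of 18 settings among untreated mice. The exception was rescaling to TPM, on which length-corrected values sum to the same total in every library. There it was 0.21 (adjusted p = 0.285), and where the median of all genes moved to -0.38, so that Zap70 lay 0.59 above that median. Hnrnpll and Zap70 were the only members called with the same sign in both strain comparisons, as were 31.3% of all genes tested.

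**Figure D3:**
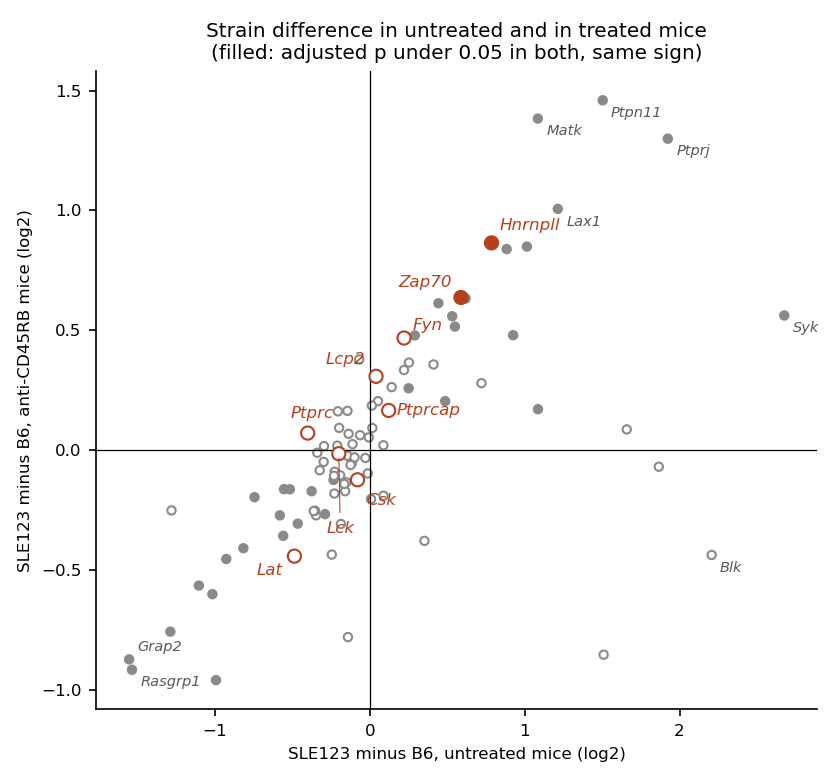
Log2 difference between SLE123 and B6 in treated mice (vertical) against that in untreated mice (horizontal) for the 9 members (red, named) and 82 genes of related lists (grey), with filled points called in both with the same sign. The mice of the 2 axes are separate, Hnrnpll and Zap70 are the filled members, and Blk lies to the right of and below 0.

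Fyn (chr10:39368855-39565381, plus strand) and Lck (chr4:129548344-129573641, minus strand), the Src-family kinases of T cells, were not alike. Fyn was at 139.8, 148 and 142 FPKM in untreated B6 and at 184, 163 and 156 FPKM in untreated SLE123 mice. It was at 133, 129 and 129 FPKM in treated B6 and at 176, 184 and 183 FPKM in treated SLE123 mice. Every SLE123 mouse was above every B6 mouse. Among treated mice Fyn was 1.38-fold higher in SLE123 (log2 0.47, SE 0.036, adjusted p = 0.000112), a call that held in all 18 settings. Among untreated mice the difference was 0.22 (SE 0.093, adjusted p = 0.0906) and missed the threshold, and it was called in 6 of 18 settings, among them without untreated SLE123 mouse 3 (0.27, adjusted p = 0.0478).

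Lck, which opens signaling at the coreceptor, was at 421, 413 and 428 FPKM in untreated B6 and at 377, 412 and 315 FPKM in untreated SLE123 mice. In treated mice it was at 398, 396 and 421 FPKM in B6 and at 399, 404 and 397 FPKM in SLE123. The treated strains lay within the same range, with a log2 difference of -0.02 and a 95% interval of -0.11 to 0.08 (adjusted p = 0.775). The untreated strains did not overlap but the difference of -0.20 was not called (95% interval -0.50 to 0.10, adjusted p = 0.238). The ratio of Fyn to Lck lay between 0.306 and 0.358 in the 6 B6 mice, and between 0.396 and 0.494 in the 6 SLE123 mice. A scaling factor common to all genes of a library drops out of this ratio. Differences by transcript length (3562 bases for Fyn and 2185 for Lck) or in the mix of cells do not. The lowest SLE123 ratio, 0.396, belonged to untreated mouse 2, the library poor in long genes.

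Csk (chr9:57626646-57653631, minus strand), the kinase that closes Lck and Fyn, was at 164, 165 and 166 FPKM in treated B6 and at 153, 150.2 and 150.5 FPKM in treated SLE123 mice. It was lower in treated SLE123 by 8.25% (log2 -0.12, SE 0.031, adjusted p = 0.0140) without overlap. The call was lost without treated B6 mouse 5 (adjusted p = 0.0628) and without treated SLE123 mouse 2 (adjusted p = 0.0556), and the value was -0.03 with immunoglobulin genes left out of the scaling (adjusted p = 0.468). Among untreated mice Csk was at 153, 152 and 163 FPKM in B6 and at 147, 162 and 135 FPKM in SLE123, which overlapped (-0.08, 95% interval -0.31 to 0.15).

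The adaptors went in opposite directions. Lat (chr7:126363824-126369570, minus strand), the membrane scaffold, was at 467, 504 and 491 FPKM in treated B6 and at 375, 349.7 and 350.3 FPKM in treated SLE123 mice, without overlap, and was 26.4% lower in SLE123 (log2 -0.44, SE 0.048, adjusted p = 0.000420). Among untreated mice it was at 490.0, 483 and 519 FPKM in B6 and at 340.4, 491 and 266 FPKM in SLE123. The value of 491 FPKM among them came from untreated SLE123 mouse 2, the library poor in long genes, and Lat has a short transcript of 1239 bases. The untreated difference was -0.49 (SE 0.214, adjusted p = 0.103) with that mouse and -0.72 (adjusted p = 0.0062) without it.

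Lcp2 (chr11:34046920-34092295, plus strand), the cytosolic partner of Lat, was at 88.0, 84.3 and 87.9 FPKM in treated B6 and at 106, 110.0 and 107 FPKM in treated SLE123 mice, without overlap. The difference was 0.31 (SE 0.036, 1.24-fold, adjusted p = 0.000544). Among untreated mice Lcp2 was at 93.2, 95.4 and 94.3 FPKM in B6 and at 102, 97.6 and 91.7 FPKM in SLE123, which overlapped, with a difference of 0.04 (95% interval -0.14 to 0.22, adjusted p = 0.692). The B6 mice had 0.259 to 0.294 times as much Zap70 as Lat, and the SLE123 mice 0.430 to 0.748 times.

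Ptprc itself was at 542, 510.2 and 507 FPKM in untreated B6 and at 492, 328 and 377 FPKM in untreated SLE123 mice. In treated mice it was at 479, 436 and 468 FPKM in B6 and at 498, 484 and 470.1 FPKM in SLE123. The untreated SLE123 mice were below the untreated B6 mice, and the low values belonged to mice 2 and 3. The untreated difference was -0.40 (SE 0.162, 95% interval -0.78 to -0.02, adjusted p = 0.0825) and missed the threshold. It was -0.56 (adjusted p = 0.0121) without untreated SLE123 mouse 1, and the value was -0.08 with that mouse as the sole untreated SLE123 sample. Among treated mice the strains overlapped (0.07, 95% interval -0.05 to 0.19, adjusted p = 0.276).

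Ptprc followed the balance of long and short genes in its library. Over the 12 mice the correlation of its log2 level with that index was r = 0.926, and that of Ptprcap, the shortest transcript of the set at 927 bases, was -0.768. Without untreated SLE123 mouse 2 the correlation over the other 11 was 0.934 for Ptprc and 0.160 for Ptprcap, so the negative value for Ptprcap rested on that library. Lck and Lat had r of 0.15 and 0.0093 over all 12 mice and of 0.812 and 0.661 over these 11. The omitted mouse, with the lowest index, held both the lowest Ptprc and the highest Ptprcap value. With the trend on transcript length removed, the untreated strain difference in Ptprc was -0.30 (adjusted p = 0.0722). Hnrnpll had an r of -0.29 with the index (-0.48 without that mouse) although its transcript is 4651 bases long.

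**Figure D4:**
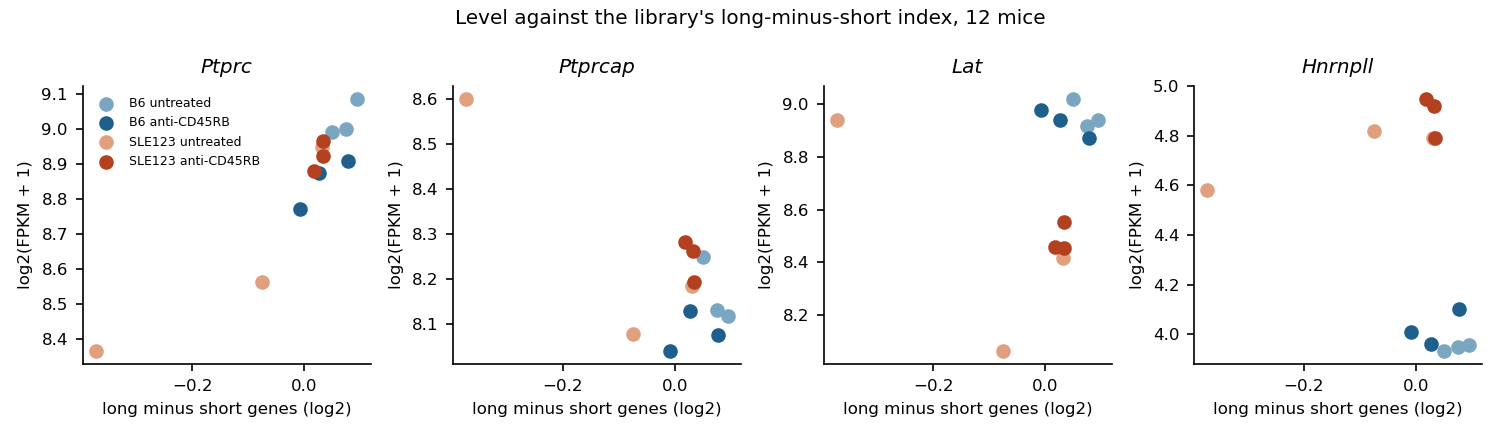
Log2(FPKM + 1) of Ptprc, Ptprcap, Lat and Hnrnpll in each library against the index of long and short genes of that library, with axes that do not start at 0. The index is the median log2 deviation of long genes from their means over all libraries, less the same median for short genes. Untreated SLE123 mouse 2 lies at -0.37, with the lowest Ptprc and the highest Ptprcap value, and Hnrnpll separates by strain at every index.

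Ptprcap (chr19:4153604-4156751, plus strand), a transmembrane protein that associates with CD45, was at 269, 262 and 279 FPKM in treated B6 and at 292, 306 and 310.3 FPKM in treated SLE123 mice, a difference of 0.17 (SE 0.043, adjusted p = 0.0164) without overlap. The direction depended on the scaling, since it was -0.01 on the TPM scale, where the median of all genes lay at -0.14. Without single mice the adjusted p was 0.0080 to 0.0599, and the call was lost without treated B6 mouse 1 or 3 or treated SLE123 mouse 2 or 3. Among untreated mice Ptprcap was at 277, 279 and 303 FPKM in B6 and at 289.9, 387 and 269 FPKM in SLE123, which overlapped (0.12, adjusted p = 0.535). Of the exonic bases of Ptprcap, 76.0% overlap Rps6kb2 on the opposite strand and 26.8% overlap Coro1b on the same strand. It is not stated whether the counting used the strand, so its level is less certain than that of the others.

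In all, 7 of 9 members were called between the treated strains, 5 higher and 2 lower in SLE123, where 52.1% of all genes were called (29.6% higher and 22.5% lower). Between the untreated strains 2 of 9 were called, both higher, against 42.9% of all genes (22.8% higher and 20.1% lower). The strains did not overlap for 7 of 9 treated and 5 of 9 untreated, where 61.8% and 58.6% of all genes did not. The median absolute log2 difference was 0.31 for the members and 0.23 for all genes between treated strains, and 0.22 and 0.30 between untreated strains. The number called between untreated strains was 5 on the TPM scale, in one fit of all 12 mice, or without untreated SLE123 mice 2 and 3 (which leaves 1 mouse in that group), and 4 with the length trend removed. Of all genes called between untreated strains 53.2% were higher in SLE123, and that share was 24.3% on the TPM scale, 67.4% with immunoglobulin genes left out of the scaling and 83.2% when levels were centred on the T cell markers. Between treated strains it was 56.8%, with 35.3% on the TPM scale and 71.7% without immunoglobulin genes. The 9 T cell markers themselves differed by strain. In SLE123 2 of them were called lower among untreated mice, and 4 were called higher and 3 lower among treated mice.

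**Figure D5:**
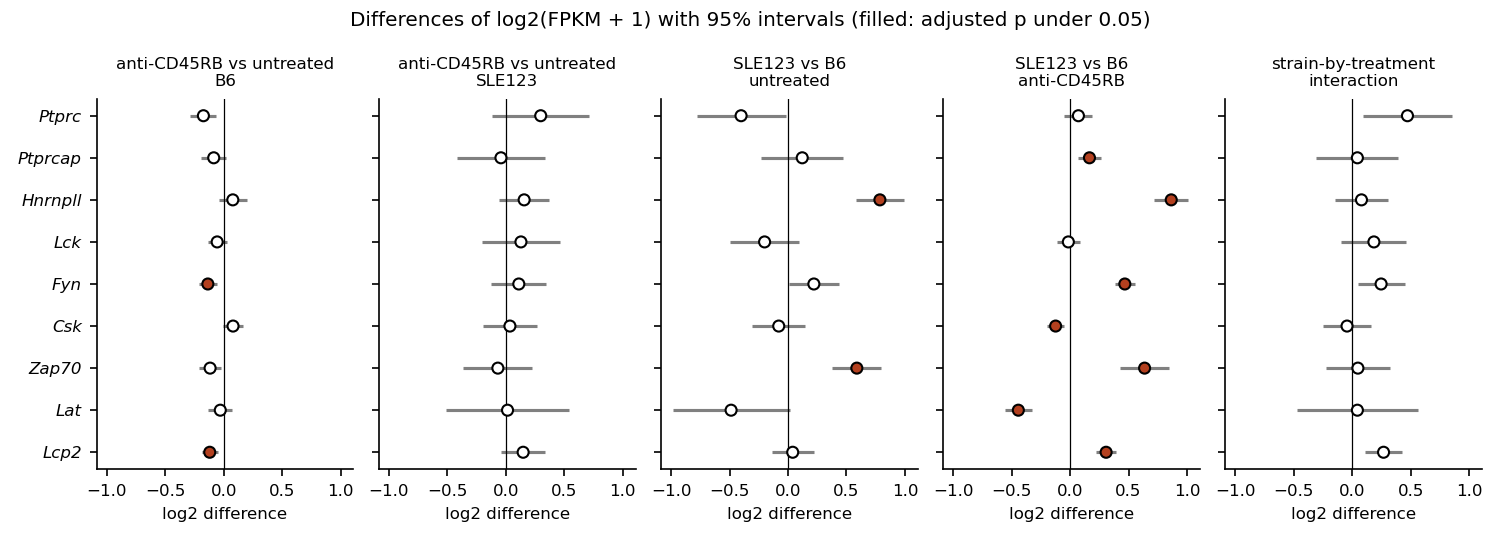
Log2 differences with 95% intervals for the 9 members in the 5 comparisons, with filled points at an adjusted p under 0.05. The members differ mainly between strains, with 7 filled among treated and 2 among untreated mice, and the intervals are wide wherever untreated SLE123 mice enter.

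In B6 cells the effect of anti-CD45RB on these genes was small. The members Fyn and Lcp2 were lower in treated mice, by 8.96% (log2 -0.14, SE 0.032, adjusted p = 0.0338) and 7.93% (log2 -0.12, SE 0.030, adjusted p = 0.0406), and in both the groups did not overlap. So 2 of 9 members were called, both lower, against 14.9% of all genes (8.74% higher and 6.12% lower). Both calls were lost when any single one of the 6 mice was left out (adjusted p of 0.0507 to 0.105 for Fyn and 0.0651 to 0.126 for Lcp2), and with levels centred on the T cell markers the values were -0.02 and -0.0037. Under that centring Csk (0.20, adjusted p = 0.0111) and Hnrnpll (0.19, adjusted p = 0.0392) were called instead, both higher.

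Ptprc, the target, was lower in treated B6 by 11.3% (log2 -0.17, SE 0.047, 95% interval -0.28 to -0.06), with no overlap, and its adjusted p of 0.0515 missed the threshold. It was called in 2 of 18 settings, with a filter at 1 FPKM (adjusted p = 0.0455) and with voom (adjusted p = 0.0120). Zap70 was at -0.12 (adjusted p = 0.0950), Ptprcap at -0.09 (adjusted p = 0.235), Lck at -0.06 (adjusted p = 0.315) and Lat at -0.03 (adjusted p = 0.675). Csk was at 0.08 (adjusted p = 0.161) and Hnrnpll at 0.08 (adjusted p = 0.327). Treated and untreated B6 mice did not overlap for 6 of the 9 members, where 38.0% of all genes did not overlap. The sum of the 9 T cell markers was 2116 to 2167 FPKM in treated and 2221 to 2307 FPKM in untreated B6 mice, and 3 of the 9 fell and 0 rose. With levels centred on these markers Ptprc was at -0.06 (adjusted p = 0.386), the median of all genes moved to 0.11, and the share of called genes that were higher went from 58.8% to 91.5%.

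Genes around the members were also called in B6. Of 82 tested genes in 7 lists of proximal signaling, 11 rose and 13 fell, or 24 called, where 8.74% of all genes rose and 6.12% fell. Among the splicing factors 1 fell (Srsf5, -0.18). In the list of receptor chains and coreceptors 5 of 10 fell and 0 rose, namely Trac (-0.34), Cd28 (-0.23), Cd6 (-0.21), Cd5 (-0.16) and Cd3g (-0.15). This list overlaps the T cell markers, and Cd28, Cd5 and Cd3g are the 3 of those 9 markers that fell. Among the largest changes were Lgals1 and Lgals3, which encode galectins 1 and 3, lectins that bind glycans of CD45. Lgals1 rose from 81.9 ± 5.32 to 203 ± 9.71 FPKM (log2 1.30, adjusted p = 0.000274) and Lgals3 from 1.39 ± 0.276 to 7.51 ± 1.69 FPKM (1.82, adjusted p = 0.0013).

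Syk, the relative of Zap70 in B and myeloid cells, rose in treated B6 mice from 1.11 ± 0.217 to 4.95 ± 0.542 FPKM (1.49, adjusted p = 0.000791). Lyn (1.27) and Blk (1.21), Src-family kinases of B and myeloid cells, rose as well, as did Tec (0.68) and the receptor phosphatase Ptprj (0.46). B cell markers, a list that includes Blk itself, moved with them, with 6 of 7 tested called higher and sums of 27.2 to 35.8 against 6.50 to 7.94 FPKM. Markers of monocytes, macrophages and neutrophils did too, with 7 of 9 tested called higher and sums of 67.9 to 130.3 against 12.8 to 18.2 FPKM. Also called higher, with none lower, were 5 of 7 tested markers of basophils and eosinophils, 5 of 7 of erythroid cells and platelets, 3 of 5 of NK cells and 3 of 4 of dendritic cells. The part of such cells in these changes was not tested.

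In SLE123 cells limma called 0 of the 9 members after anti-CD45RB, against 0.0381% of all genes. The groups did not overlap for 1 of the 9, Lcp2, and for 19.7% of all genes. None had an unadjusted p under 0.05, and voom on fragment counts called 0 as well. The median member was at 0.11, the smallest adjusted p was 0.490 (Lcp2, 0.15, 95% interval -0.04 to 0.34), and the widest interval was that of Lat (-0.51 to 0.54). The B6 values of Ptprc, Fyn and Lcp2 lay below the SLE123 intervals (that of Fyn was -0.12 to 0.35), and those of the other 6 members lay within them. Ptprc was at 0.30 (95% interval -0.12 to 0.71, adjusted p = 0.511), and this value was 0.46 without untreated SLE123 mouse 1, 0.17 without mouse 2 and -0.02 with mouse 1 as the sole untreated sample. Of the 82 list genes 0 were called by limma and 0 by voom, and 12 had an unadjusted p under 0.05.

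The strain-by-treatment interaction, the treated-minus-untreated difference in SLE123 less that in B6, asked whether the strains responded differently. No member was called, while 3.64% of all genes were, and 3 members had an unadjusted p under 0.05 in limma (0 were called by voom). These were Lcp2 (0.27, SE 0.073, adjusted p = 0.0668), Ptprc (0.47, SE 0.173, adjusted p = 0.131) and Fyn (0.25, SE 0.091, adjusted p = 0.133). All 3 were called without untreated SLE123 mouse 1, at 0.30, 0.63 and 0.31 (adjusted p = 0.0110, 0.0054 and 0.0126), and the count for all genes went from 478 to 2917. With that mouse as the sole untreated SLE123 sample the values were 0.20, 0.15 and 0.11. Of the 82 list genes 7 were called in limma, all lower, where 2.38% of all genes were called lower. Voom called 5 of the 82. Of all called genes 34.7% were higher, a share that was 3.82% with centring on the T cell markers, 20.5% with centring on the median and 21.8% without immunoglobulin genes. The share was 67.9% (1981 of 2917) without untreated SLE123 mouse 1 and 66.7% (1449 of 2172) without both SLE123 libraries 1, so the balance of directions turned with that library. For Hnrnpll the interaction was 0.08 (95% interval -0.15 to 0.30) and for Zap70 0.05 (95% interval -0.23 to 0.32).

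In the wider lists, too, many genes differed between strains, as they did in the whole table. Of the 82 genes, 22 rose and 20 fell in SLE123 among untreated mice and 24 rose and 30 fell among treated mice, and 33 were called with the same sign in both, 16 higher and 17 lower. Of all genes 42.9% were called among untreated mice, 52.1% among treated mice and 31.3% with the same sign in both. In the list of Lat complex adaptors and effectors, 12 of 17 fell and 2 rose among treated mice. Grap2 (Gads), which couples Lcp2 to Lat, was at 148 ± 5.58 FPKM in untreated B6 and 51.9 ± 19.6 FPKM in untreated SLE123 mice (-1.55, adjusted p = 0.0017), and the treated difference was -0.87 (adjusted p = 0.000273). Rasgrp1, the Ras activator downstream of Lat, differed by -1.54 (adjusted p = 0.000451) and -0.92 (adjusted p = 0.000604).

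Among the 19 negative regulators 9 rose and 4 fell in each strain comparison, where 22.8% and 29.6% of all genes rose and 20.1% and 22.5% fell among untreated and treated mice. Ptpn11, the phosphatase SHP-2, was at 22.0 ± 1.11 FPKM in treated B6 and 62.7 ± 7.51 FPKM in treated SLE123 mice (1.46, adjusted p = 5.7e-05). Lax1, an adaptor that restrains signaling, was at 47.7 ± 1.504 and 97.5 ± 13.9 FPKM (1.01, adjusted p = 0.0003). Matk, the homologue of Csk, which belongs to the list of Src-family and Csk-family kinases and not to these 19, was at 7.85 ± 1.32 and 22.1 ± 3.72 FPKM (1.38, adjusted p = 0.000408). Sla2, an adaptor that limits receptor signaling, was lower, at 15.96 ± 0.768 and 7.72 ± 0.492 FPKM (-0.96, adjusted p = 6.4e-05).

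Other receptor phosphatases differed between strains as well. Ptprs was higher in SLE123 by 0.88 among untreated mice (adjusted p = 0.000734) and by 0.84 among treated mice (adjusted p = 0.000256). Ptprj (CD148), which in some cells shares substrates with CD45, was at 1.42 ± 0.108 FPKM in untreated B6 and 8.43 ± 2.70 FPKM in untreated SLE123 mice (1.92, adjusted p = 0.000380), and the treated difference was 1.30 (adjusted p = 0.000170). Syk (2.68), Blk (2.21), Lyn (1.87) and Lgals3 (1.66) were also higher in untreated SLE123 mice, beside the B cell markers given above (Blk among them) and 8 of 9 tested myeloid markers (sums of 125 to 202 against 12.8 to 18.2 FPKM). The part of such cells was not tested. Between treated strains the myeloid markers had sums of 81.6 to 100.0 FPKM against 67.9 to 130.3 FPKM in treated B6.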

How the data were processed

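Purified CD4+ T cells of 12 mice were sequenced. The authors deposited FPKM values per Ensembl gene and library, that is, fragments scaled to transcript length and library total. The submitters' processing notes name CASAVA 1.8, STAR and mm10, while the counting program, its strand setting and the annotation are not given in the sources used here. Symbols, coordinates and sequences came from GENCODE M21 (GRCm38), which holds 34490 of the 35275 identifiers. For 100% of the 23230 genes above 0, values corresponded to whole fragments, which gave fragment numbers, library totals and transcript lengths. A value of 3 fragments on a transcript of 2000 bases was 0.0634 to 0.111 FPKM, which covers counting error only.

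The 13115 genes averaging 0.5 FPKM or more were tested on log2(FPKM + 1) with limma 3.58.1 (lmFit, eBayes with trend; R 4.3.3), two-sided, with Benjamini-Hochberg adjustment at 0.05. The authors used DESeq2, which needs counts. Each 2-group comparison used its 6 mice, and the interaction all 12. The fit was tested on simulated data. Libraries of a group were separate mice, and no pair agreed within counting noise (the smallest ratio was 1.88).

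The members and lists were chosen with earlier results of these data known. Named genes were the 9 members, up to 8 called list genes with the largest change per comparison, the called genes of a list where 5 or fewer were called, the 5 nearest in pattern to Ptprc and 3 nearest to Hnrnpll, and markers. The values of 1 list gene are not reported here. Hnrnpl was named after its values were seen. Alternatives were a pseudocount of 0.1, filters, TPM, 3 other scalings, voom on recovered fragments, all 12 mice in one fit, the replicate block and each mouse left out. Removal of the length trend and of pairs of SLE123 libraries was chosen after seeing the data.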

Additional observations from a re-analysis of the deposited data

Results flagged for a closer look

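Lcp2 was lower in every treated than in every untreated B6 mouse and higher in every treated than in every untreated SLE123 mouse. The interaction was 0.27 on the log2 scale, in limma at an unadjusted p of 0.0037 and an adjusted p of 0.0668, so the opposite directions did not pass the test of the difference.

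In limma the test of the difference between strains was passed by 6 named genes of the signaling lists. Each of them rose with anti-CD45RB in B6. None was called in SLE123, which does not show that they were unchanged there. Blk was at 2.25 to 15.9 FPKM in untreated SLE123 mice and lower in every treated one. For Blk, Syk and Lyn the interaction was larger in size than the rise in B6, so their SLE123 differences were negative. Those of Lgals3, Lgals1 and Tec were positive. Voom called 5 of the 82 list genes where limma called 7, and some of the other settings lost a call. The interactions were -2.65 for Blk, -2.11 for Syk, -1.94 for Lyn, -1.57 for Lgals3, -0.92 for Lgals1 and -0.64 for Tec (adjusted p of 0.0013 to 0.0473). B cell markers were summed at 64.6 to 239.9 FPKM in untreated and 38.3 to 58.2 FPKM in treated SLE123 mice, and at 6.50 to 7.94 and 27.2 to 35.8 FPKM in B6. Myeloid markers were summed at 125 to 202 and 81.6 to 100.0 FPKM in SLE123, and at 12.8 to 18.2 and 67.9 to 130.3 FPKM in B6. Basophil and eosinophil markers were summed at 136 to 163 and 41.4 to 48.1 FPKM in SLE123, and at 4.25 to 4.77 and 20.2 to 36.7 FPKM in B6. Of these 7 of 7 tested had a called interaction, as did 7 of 9 monocyte, macrophage and neutrophil markers and 6 of 7 erythroid and platelet markers, all lower. Also called, all lower, were 4 of 7 B cell markers (Blk among them), 3 of 5 NK cell markers and 2 of 4 dendritic cell markers. Of the 7 plasma cell markers 0 were called. Over all genes tested 3.64% had a called interaction in limma, and 2.38% a lower one. Voom called the interaction for fewer B cell markers (1) and NK cell markers (1), and for 3 dendritic cell markers. It called 6 monocyte, macrophage and neutrophil, 6 erythroid and platelet, 7 basophil and eosinophil and 0 plasma cell markers. The part of such cells in these differences was not tested.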

How the results depend on the processing

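The median residual SD was 0.145 in SLE123 and 0.0872 in B6, with 3 mice per group, so small differences were less detectable in SLE123. The strain differences in Hnrnpll, and in Fyn among treated mice, were called under every alternative run, Zap70 among untreated mice under all but TPM, and Lcp2 and Lat among treated mice under all but 1 each (TPM, and one fit of all 12 mice). The cause of the changes below was not tested.

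In B6, 0 members were called with no filter, with the length trend removed, in one fit of all 12 mice, with the replicate block and with any mouse left out (range 0 to 0), and 1 with centring on the median. All genes called in B6 were 1134 with no filter, 3332 with centring on T cell markers, 815 in one fit, 0 with the block and 675 to 1393 with a mouse left out. In SLE123 they were 21 on the TPM scale, 3 without immunoglobulin genes, 3 with voom, 53 in one fit, 0 without treated and untreated libraries 1, and 1 to 7 with a mouse left out. Between untreated strains the members called were 5 with TPM, 4 with the length trend removed, 5 in one fit and 5 without untreated libraries 2 and 3, and all genes called were 3672 to 6469 with a mouse left out. Between treated strains 4 members were called in one fit, and 3414 genes with the block. In the interaction 3 members were called without libraries 1 and 0 to 3 with a mouse left out. All genes called there were 317 without immunoglobulin genes, 288 with T cell marker centring, 34 with the block, 2172 without libraries 1, 251 without untreated libraries 2 and 3, and 205 to 2917 with a mouse left out, the highest without untreated SLE123 mouse 1.

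Other changes of sign were in differences that were not called, apart from Ptprcap between treated strains. Centring on T cell markers gave, in B6, Ptprcap 0.030, Lck 0.060 and Lat 0.087, in SLE123 Csk -0.066 and Lat -0.086, between untreated strains Lck 0.032 and Csk 0.15, between treated strains Lck 0.00066, and in the interaction Ptprcap -0.17, Hnrnpll -0.14, Lck -0.032, Zap70 -0.17 and Lat -0.17. TPM gave, in SLE123, Ptprcap 0.15 and Zap70 0.12, between untreated strains Ptprcap -0.26, Fyn -0.16 and Lcp2 -0.34, between treated strains Ptprc -0.11 and Ptprcap -0.014, and in the interaction Csk 0.16. Centring on the median gave Csk -0.0056 and Lat -0.026 in SLE123, and Ptprcap -0.0092, Zap70 -0.0047 and Lat -0.0092 in the interaction. Without immunoglobulin genes Csk was 0.012 between untreated and Lck 0.084 between treated strains. The length trend gave Hnrnpll -0.039 in the interaction. Without untreated libraries 2 and 3, SLE123 gave Ptprc -0.025, Ptprcap 0.062 and Fyn -0.025, and the interaction Zap70 -0.044. Without libraries 1, SLE123 gave Zap70 0.085 and Lat -0.047, and the interaction Lat -0.018.

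With a mouse left out, Lat ranged from -0.053 to 0.0022 in B6, from -0.19 to 0.25 in SLE123 and from -0.16 to 0.28 in the interaction. Ptprcap ranged from -0.15 to 0.11 in SLE123, from -0.035 to 0.23 between untreated strains and from -0.061 to 0.20 in the interaction. Csk ranged from -0.030 to 0.10 in SLE123 and from -0.11 to 0.024 in the interaction, Zap70 from -0.13 to 0.039 and from -0.012 to 0.16, and Lck from -0.032 to 0.013 between treated strains.

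Nothing in the labels pairs the mice. Same-numbered libraries had correlated deviations of -0.14 and -0.0936 in B6 and of 0.14, -0.16 and 0.27 in SLE123. Those with different numbers had -0.13 to 0.20 in B6 and -0.33 to 0.21 in SLE123. With 3 mice per group these values cannot settle whether the numbers pair the mice. With the replicate block Lck between treated strains was 0.0057, and 5 of 9 members were called there. No block could be fitted between untreated strains, which share 1 number.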
